A study of Mus musculus with 8 samples.

Results

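The Kcnj2 promoter contact profile is the set of all chromatin contacts made by a 30 kb window around the Kcnj2 promoter on mouse chromosome 11. The window holds 3 bins of 10 kb, chr11:110910001-110940000 (mm9), of the 587 bins in the captured region, which ran from 109.01 to 114.88 Mb. It was chosen by its position. A contact was counted when the other bin lay at least 20 kb away. Contacts came from capture Hi-C, which ligates DNA ends that lie together in the nucleus, enriches a chosen region and counts read pairs that join distant places.

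Kcnj2 encodes an inward rectifier potassium channel that helps set the resting membrane potential. Sox9 encodes a transcription factor that limb cells need to form cartilage. Between these genes lies a long stretch poor in genes, called the desert here, which holds distant enhancers of Sox9 in the developing limb. Mammalian chromosomes fold into domains whose members meet each other more often than they meet the next domain. Many domain boundaries hold sites for CTCF, a protein that stops the extrusion of chromatin loops by cohesin. Kcnj2 lies in one domain, and the desert with Sox9 lies in the next. In the RefSeq gene order (assembly GRCm38) Map2k6 and Kcnj16 precede Kcnj2, the only protein-coding model between Kcnj2 and Sox9 is Gm11677, and Slc39a11 follows Sox9.

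All libraries were made from forelimb and hindlimb buds of E12.5 mouse embryos, homozygous for an edit made in G4 embryonic stem cells. Limb buds of 3 to 8 embryos were pooled, and each genotype had 1 library. The labels name the 8 mutants ∆BorC1, ∆BorC1-2, ∆BorC1-4, ∆CTCF, BorKnockIn, InvC, InvIntra and InvC∆Bor. The series describes its edits as deletions, insertions and inversions of CTCF sites, and the labels do not say what each C number stands for or whether a line came from 1 clone. A limb bud mixes several cell types, and a contact map holds no marker by which the tissue could be checked. The wildtype and the remaining mutant were not analysed here.

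The boundary is called here by its bin, chr11:111390001-111400000 (mm9), 470 kb to the right of Kcnj2. It was close to empty in 4 libraries, called the deletion libraries: ∆BorC1 had 4 contacts there, ∆BorC1-2 had 0, ∆BorC1-4 had 8 and ∆CTCF had 1. It held 12924 contacts in InvC∆Bor, 13844 in BorKnockIn, 21716 in InvC and 28151 in InvIntra, and these numbers do not show which sequence lies there. The maps of the rearranged libraries follow the mutant's own sequence order, as their bin coverage showed. In the 3 inverted libraries the desert's coverage matched the deletion libraries only when it was read backwards, with r across bins of 0.905 in InvC, 0.890 in InvIntra and 0.912 in InvC∆Bor. In InvC the mirror placed the boundary sequence next to 112.50 Mb, near Sox9, and in InvC∆Bor the bin at 112.50 Mb was almost empty. In BorKnockIn the desert's coverage was shifted by -18.5 kb and that right of Sox9 by -12.0 kb. A position in these 4 libraries is therefore a place in the mutant chromosome, and its sequence can differ from that of a deletion library at the same position.

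The 250 bases upstream of the Kcnj2 start hold 1 site at which the viewpoint can be cut and ligated. They are a small part of the 30 kb window, and the rest of it was not searched for sites. DpnII, the enzyme of the protocol, cuts at GATC, and the sequence is that of RefSeq in GRCm38, chr11:111065914-111066163 on the plus strand. This build differs from the mm9 of the maps, so the coordinates cannot be set beside theirs. The capitals mark that site.
Kcnj2 upstream: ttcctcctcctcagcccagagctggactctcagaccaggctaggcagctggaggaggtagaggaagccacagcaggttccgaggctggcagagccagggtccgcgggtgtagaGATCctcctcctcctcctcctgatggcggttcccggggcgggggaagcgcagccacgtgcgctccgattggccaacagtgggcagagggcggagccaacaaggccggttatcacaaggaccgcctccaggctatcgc
The 1 GATC starts 137 bases before the gene's start, and 41.9% of 32851 RefSeq promoters hold at least 1 in the same 250 bases. GATC reads the same on both strands, and a match says nothing of how often the site was cut. The stretch was 65.6% G or C, against a median of 52.4% over these promoters.

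Kcnj2 supplied a similar share of all contacts in every library. Among the deletion libraries, its window had 49625 contacts (∆BorC1), 66517 (∆BorC1-2), 95929 (∆BorC1-4) and 49583 (∆CTCF). The rearranged libraries gave 55239 in BorKnockIn, 49359 in InvC, 59406 in InvIntra and 32789 in InvC∆Bor. These are 0.929% to 1.11% of each library's 3056502 to 9045698 raw contacts. Since each genotype was measured once, no test was made, and the intervals given are 95% intervals for counting error alone.

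Contacts of Kcnj2 reached farthest to the right in ∆CTCF and InvC∆Bor, which were close to each other, and least far in InvIntra. Of its contacts, 55.9% lay to the right in ∆BorC1, 56.6% did so for ∆BorC1-2, 57.3% for ∆BorC1-4 and 59.4% for ∆CTCF. It was 57.2% in InvC and 59.2% in InvC∆Bor, against 51.8% in BorKnockIn and 49.8% in InvIntra. The median right-hand contact lay 670 to 780 kb away in the 4 deletion libraries. In InvC and InvC∆Bor it lay at 680 and 770 kb. It lay at 450 kb in BorKnockIn and 420 kb in InvIntra, which is inside the Kcnj2 domain as bounded by the boundary bin.

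The profile was divided at 4 places. The left edge of the Kcnj2 domain, the lowest median insulation left of Kcnj2, lay at chr11:110390001-110400000, where the insulation score (log2 contact across a position within 200 kb) was -0.94 to -1.07 in the 8 libraries. The boundary bin, the Sox9 bin at chr11:112640001-112650000 and the right domain edge at 113.03 Mb gave the others. Left neighbours lie before the left edge, and the stretch from the Sox9 bin to the right edge is called the Sox9 side. Shares of these segments add to 100% in each library, so a larger share in one lowers the others by construction. A second measure divides the balanced (KR) contact by the mean of the same library at the same distance, and is called contact over expected. It does not add to 100%, but balancing evens out the totals of bins, so it is not independent of the shares.

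In percentage points, the share of Kcnj2 contacts in the desert differed more between libraries than that in any other segment right of Kcnj2. ∆BorC1 placed 23.2% of its Kcnj2 contacts there (22.8 to 23.6), ∆BorC1-2 placed 25.4% (25.1 to 25.8), ∆BorC1-4 placed 23.5% (23.2 to 23.7) and ∆CTCF placed 28.6% (28.2 to 29.0). InvC had a share of 28.8% (28.4 to 29.2) and InvC∆Bor one of 27.6% (27.1 to 28.1). It was 19.1% in BorKnockIn (18.8 to 19.5) and 14.7% in InvIntra (14.4 to 15.0). Only InvC with ∆CTCF, and ∆BorC1-4 with ∆BorC1, were neighbours in this order whose intervals overlapped. Per distance, the desert contact over expected was 1.44, 1.67, 1.48 and 1.95 in the 4 deletion libraries in the same order, 1.85 in InvC, 1.72 in InvC∆Bor and 1.19 in BorKnockIn. InvIntra, at 0.828, was the only library in which Kcnj2 met the desert clearly less often than its own map's mean for that distance. That mean includes the edited domains. With a mean taken only from pairs left of Kcnj2 or right of the right edge, InvIntra had 0.990, close to the mean. The deletion libraries then had 1.83 to 2.56.

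Contact with the Sox9 side split the libraries in another way. ∆BorC1 placed 5.34% of its Kcnj2 contacts there (5.14 to 5.54), ∆BorC1-2 placed 5.46% (5.29 to 5.63), ∆BorC1-4 placed 6.09% (5.94 to 6.24) and ∆CTCF placed 5.91% (5.70 to 6.12). InvC∆Bor, at 5.03% (4.80 to 5.27), overlapped with ∆BorC1 in share, but per distance its contact over expected was lower, at 2.01 against 2.51. The share was 3.68% in InvIntra (3.53 to 3.84), 2.88% in InvC (2.73 to 3.03) and 2.74% in BorKnockIn (2.61 to 2.88). InvC and BorKnockIn overlapped, and both lay below InvIntra. Thus InvC and ∆CTCF, the highest libraries for the desert, lay far apart for the Sox9 side.

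The Sox9 bin itself gave few contacts and wide intervals. Its share of Kcnj2 contacts was 0.224% for ∆BorC1 (0.184 to 0.269), 0.280% for ∆BorC1-2, 0.231% for ∆BorC1-4 and 0.258% for ∆CTCF. These 4 values and the 0.192% of InvC∆Bor (0.148 to 0.246, 63 contacts) each overlapped with the next in order. InvC with 0.111% (55 contacts) and InvIntra with 0.0993% (59 contacts) overlapped each other and lay lower. BorKnockIn held 22 contacts, or 0.0398% (0.0250 to 0.0603), in the bin moved 1 to the left to follow its shift. That value depends on the bin taken, since the bins to its left and right, at 112.62 and 112.64 Mb, held 110 and 41 contacts, with a contact over expected of 2.38 and 1.19.

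**Figure D1:**
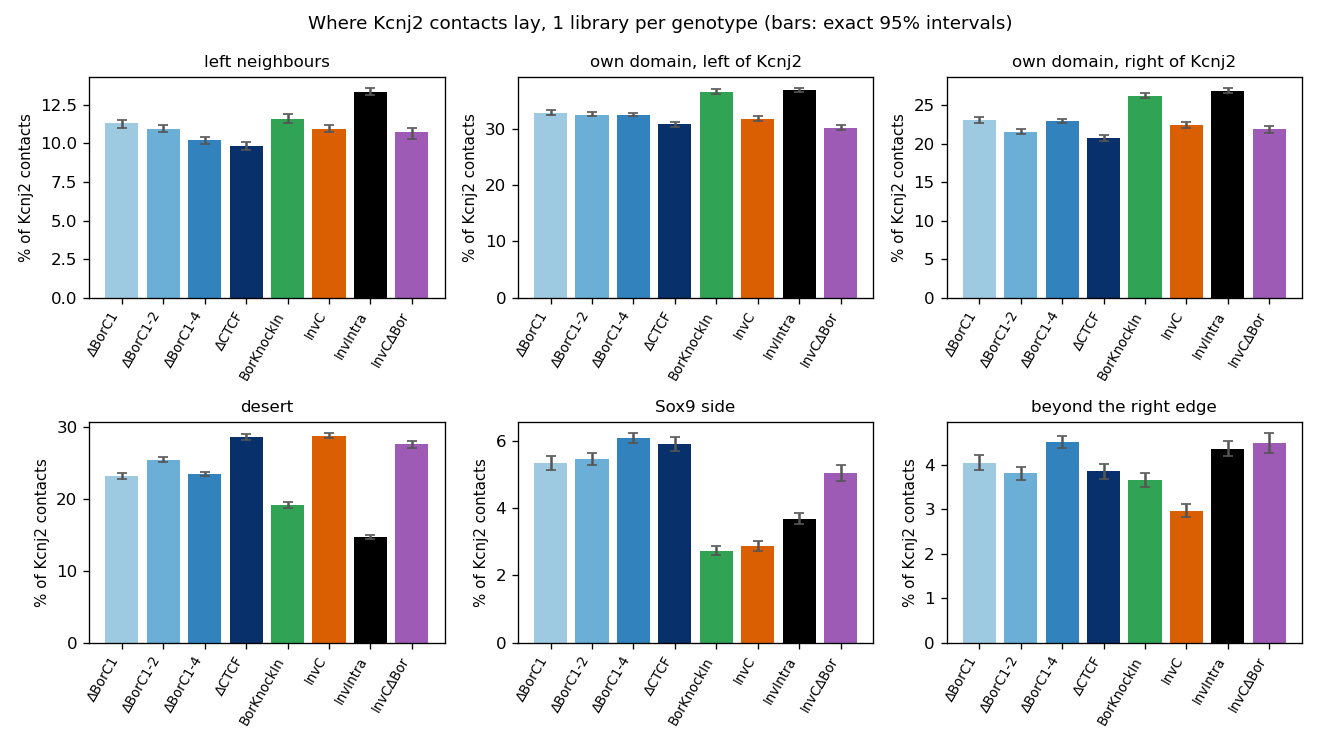
Share of Kcnj2 contacts (%, vertical axis, from 0) in each of 6 segments, for the 8 libraries; error bars are exact 95% intervals for counting error. The desert panel ranges from 14.7% in InvIntra to 28.8% in InvC, while in the Sox9 side panel BorKnockIn, InvC and InvIntra lie between 2.74% and 3.68% and the other libraries between 5.03% and 6.09%.

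To the left of Kcnj2, where no label names an edit, the libraries differed less. The left-hand share ran from 40.6% in ∆CTCF to 50.2% in InvIntra, a ratio of 1.24. Left neighbours held 11.3% for ∆BorC1, 10.9% for ∆BorC1-2, 10.2% for ∆BorC1-4 and 9.83% for ∆CTCF. They held 11.6% in BorKnockIn, 10.9% in InvC, 13.3% in InvIntra and 10.7% in InvC∆Bor. Only InvIntra stood clear of its neighbour in that order. The part of the domain left of Kcnj2 held 30.2% to 36.9% and the part from Kcnj2 to the boundary bin 20.8% to 26.9%, with InvIntra and BorKnockIn highest and overlapping in both. Per distance, leftward contact over expected ran only from 0.918 in ∆CTCF to 1.06 in InvIntra. Beyond the right edge the share was 2.97% in InvC and 3.65% to 4.51% in the other libraries.

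The spread between libraries in the desert was larger than at most other places. Over the 12 windows of 100 kb that lie wholly in the desert, the highest library's Kcnj2 contact over expected was a median of 2.46 times the lowest, with a range of 1.51 to 3.85. Over 12 windows at the same distances to the left of Kcnj2 this ratio was 1.55 (1.18 to 1.90). Among 336 pairs of places in the left flank it was 1.31 and among 313 in the right flank 1.26, with highest values of 2.32 and 2.38. The 3 windows of the Sox9 side gave 2.19 (2.09 to 2.29). These flank ratios describe how libraries differ away from the edits and are not replicate error.

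In the part of its own domain left of Kcnj2, the profile had a similar shape in all 8 libraries. Contact over expected was 0.586 to 0.700 in the window at 110.81 Mb and rose leftward to 2.35 to 2.76 in the window at 110.31 Mb, which holds the left edge. A single bin at that edge, 110.39 Mb, reached 3.63 in InvC and 4.72 in ∆BorC1-2, with the other libraries between. Past the edge it dropped, to 0.879 to 1.07 at 110.11 Mb. The domain edge was thus a preferred contact of Kcnj2 in all 8 libraries. To the right of Kcnj2 the shape differed, and the window at 111.21 Mb stood at 1.03 in ∆CTCF against 1.21 to 1.49 in the other 7 libraries.

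The deletion libraries were set against InvIntra, whose label is read here as an inversion inside a domain that leaves the boundary in place. The median desert share of the 4 deletion libraries was 1.66 times that of InvIntra (1.63 to 1.70), and the single libraries lay at 1.58 to 1.94 times. For the Sox9 side the median was 1.54 times InvIntra (1.47 to 1.62). Between ∆BorC1 and InvIntra, 7 of 58 windows of 100 kb with at least 20 contacts were over 1.5 times higher in share in ∆BorC1 and 6 were lower. Over every 30 kb viewpoint of the map, 4.93% of windows were higher and 5.66% lower by that rule. All 7 higher windows lay in the desert, so 12.1% of the Kcnj2 windows were higher against a background of 4.93%. With KR values 10 windows were higher and 4 lower, against 5.05% and 5.07% of all viewpoints' windows. The desert of InvIntra is inverted, so its neighbouring sequence differs too, and the role of the inversion was not tested.

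The step at the boundary bin was sharp in InvIntra. Just left of it, in the window at 111.31 Mb, Kcnj2 contact over expected was 1.63 in InvIntra and 1.23 in ∆BorC1. Just right of it, at 111.41 Mb, it was 0.469 in InvIntra (799 contacts) and 1.19 in ∆BorC1 (1424 contacts). InvIntra then climbed across the desert to 1.78 at 112.41 Mb, where ∆BorC1 had 1.72. The largest ratios of shares between these libraries were at 111.61 Mb (1148 contacts in ∆BorC1 and 625 in InvIntra), at 111.41 Mb (2.13) and at 111.51 Mb (2.05). The gain of ∆BorC1 over InvIntra was therefore greatest in the part of the desert nearest to Kcnj2. At 112.31 and 112.41 Mb ∆BorC1 was not above InvIntra in contact over expected, with 1.54 against 1.65 in the first, while in the last desert window, at 112.51 Mb, it had 2.12 against 1.70. The smallest ratios were 0.583 at 111.31 Mb, 0.590 at 109.21 Mb and 0.601 at 109.91 Mb.

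**Figure D2:**
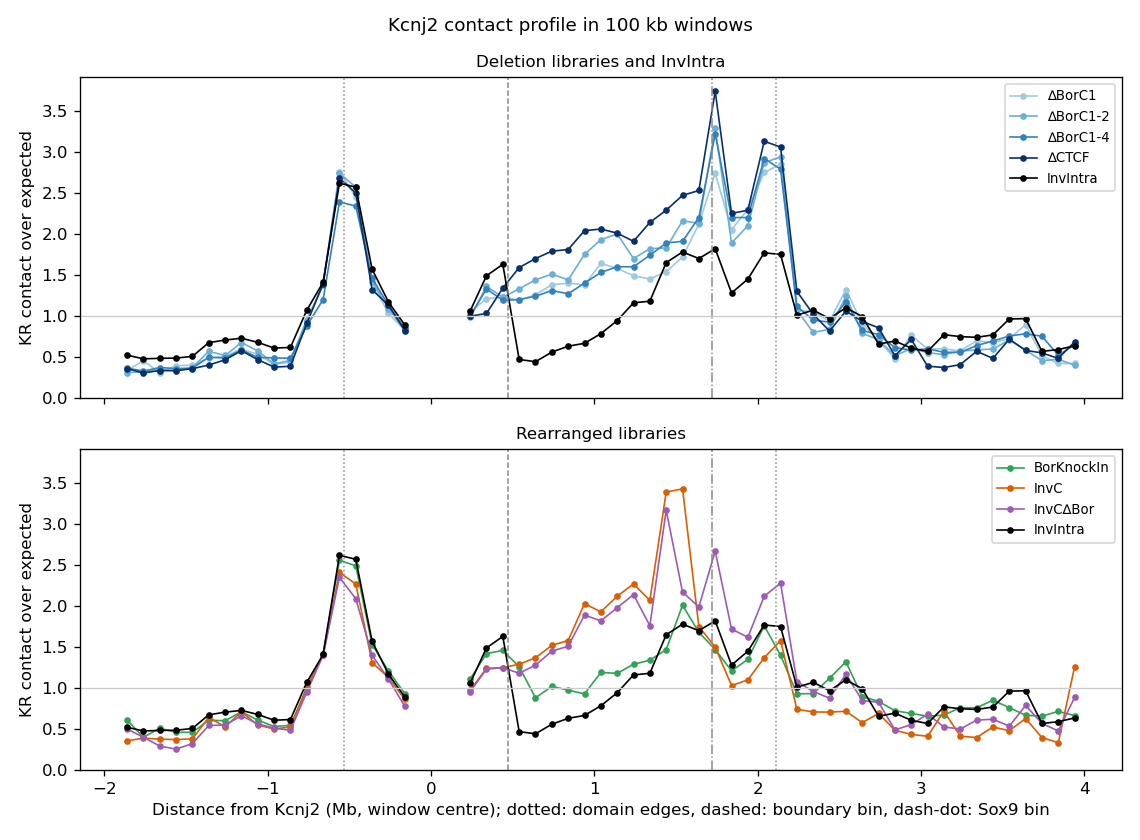
KR contact over expected (vertical axis) of Kcnj2 in 100 kb windows against distance from Kcnj2 in Mb, leaving out the windows nearest to it; the upper panel shows the 4 deletion libraries and InvIntra, the lower the rearranged libraries. InvIntra falls from 1.63 to 0.469 across the boundary bin and climbs to 1.78, while the deletion libraries stay above 1 throughout the desert. They are highest in the window that holds Sox9 or, in ∆BorC1, in the window that holds the right edge.

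In the deletion libraries the far landmarks of the Sox9 domain were among the strongest distant contacts of Kcnj2. The window at 112.61 Mb, which holds Sox9, had a contact over expected of 2.74 for ∆BorC1, 3.29 for ∆BorC1-2, 3.22 for ∆BorC1-4 and 3.74 for ∆CTCF. The window at 112.91 Mb, before the right edge, and that at 113.01 Mb, which holds it, had 2.75 to 3.13. These 3 windows were among the top 5 in each deletion library, joined in ∆CTCF by the windows at 110.31 and 112.51 Mb and in the others by 110.31 and 110.41 Mb. In InvIntra and BorKnockIn the 2 windows at the left edge, 110.31 and 110.41 Mb, ranked first and second instead, at 2.62 and 2.57 in InvIntra and 2.56 and 2.49 in BorKnockIn.

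At 10 kb, the peaks of the deletion libraries lay in a few bins at Sox9 and beside the right edge. These and the other bins named were chosen after their values were seen. The bin at 113.02 Mb, beside the right edge, was the highest of all in each deletion library, at 6.28 for ∆BorC1 (5.32 to 7.37, 150 contacts), 7.81 for ∆BorC1-2, 6.17 for ∆BorC1-4 and 6.97 for ∆CTCF. The Sox9 bin at 112.64 Mb had 5.19 for ∆BorC1 (4.27 to 6.25, 111 contacts), 6.53 for ∆BorC1-2, 5.19 for ∆BorC1-4 and 6.83 for ∆CTCF. The bin at 113.01 Mb was about as high, with 5.14 in ∆BorC1 and 6.01 in ∆CTCF. Next to Sox9, the bin at 112.63 Mb had 3.34 in ∆BorC1 and 5.73 in ∆CTCF, and that at 112.65 Mb had 2.25 to 4.39. In raw contacts the bin at 112.63 Mb held more than the Sox9 bin in each deletion library. It held 135 against 111 in ∆BorC1 and 214 against 128 in ∆CTCF. The higher value of the Sox9 bin thus rests on the balancing. In InvIntra the bins at 113.02 and 112.64 Mb had 3.27 and 2.31, and the first of them was the highest of its bins right of the boundary. Both values lay below the intervals of ∆BorC1.

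Across the desert the deletion libraries shared a gentle rise with distance. Contact over expected at 111.51 Mb was 1.26 (∆BorC1), 1.44 (∆BorC1-2), 1.24 (∆BorC1-4) and 1.70 (∆CTCF). At 112.51 Mb, before Sox9, it lay between 2.12 in ∆BorC1 and 2.53 in ∆CTCF. The slope over 11 desert windows was 0.04 to 0.07 in log2 per 100 kb, and the r between any pair of these 4 profiles was 0.82 to 0.93. BorKnockIn, with a slope of 0.08, went from 0.881 at 111.51 Mb to 1.68 at 112.51 Mb, passing 2.01 at 112.41 Mb. In ∆CTCF Kcnj2 was above the other 3 deletion libraries at both places.

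Past the right edge the profile of Kcnj2 dropped in all libraries. From the window at 113.01 Mb to that at 113.11 Mb the contact over expected went from 2.85 to 1.07 in ∆BorC1 and from 3.06 to 1.30 in ∆CTCF. InvIntra went from 1.75 to 1.01 over the same step and InvC from 1.58 to 0.741. The right edge was thus, like the left, a place past which Kcnj2 had fewer contacts, in InvIntra as in the deletion libraries. Farther out, at 113.41 Mb, 7 libraries had 1.06 to 1.32 and InvC had 0.717.

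The labels of the deletion libraries form a series, and the desert share of Kcnj2 did not move in 1 direction along it. From ∆BorC1 to ∆BorC1-2 the desert share was 1.10 times higher (1.07 to 1.12), and no window of 58 passed 1.5-fold in either direction, against 0.510% higher and 1.68% lower over all viewpoints. From ∆BorC1-2 to ∆BorC1-4 the desert share was 0.924 times as high (0.908 to 0.940), while the Sox9 side was 1.12 times as high (1.07 to 1.16). Of 58 windows 1 was higher and 0 lower, against 2.21% and 0.0699% of all. The higher one was at 114.61 Mb, beyond the right edge, with 127 against 45 contacts. Its ratio was 1.96 (1.39 to 2.75).

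Between ∆CTCF and ∆BorC1-4 the desert share was 1.22 times higher in ∆CTCF (1.20 to 1.24) and the Sox9 side 0.971 times (0.930 to 1.01), whose interval holds 1. Of 58 windows 0 were higher and 7 lower, against 0.218% and 2.93% over all viewpoints. Of these 7, 6 lay beyond the right edge, where ∆CTCF held at most 48 contacts in a window. The other was the window at 111.21 Mb in Kcnj2's own domain, with 1338 contacts in ∆CTCF and 3909 in ∆BorC1-4. By KR values it did not pass 1.5-fold, with a contact over expected of 1.03 against 1.33. The smallest ratio was 0.537 at 113.91 Mb, with 48 contacts in ∆CTCF and 173 in ∆BorC1-4. In the desert the 3 largest ratios were 1.33 at 111.81 Mb, 1.31 at 111.71 Mb and 1.29 at 111.51 Mb, all short of 1.5. The gain of ∆CTCF was spread over the desert and not held by 1 window.

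In BorKnockIn, whose label names a boundary put in, Kcnj2 met the Sox9 side less often than in ∆BorC1. The Sox9 side share was 0.514 times that of ∆BorC1 (0.483 to 0.547) and the desert share 0.825 times (0.805 to 0.844). The Sox9 bin share was 0.178 times (0.113 to 0.281), but 0.289 times by contact over expected, and it rests on the 22 contacts of the moved bin. The part of the domain left of Kcnj2 was 1.11 times as high (1.10 to 1.13). Of 58 windows 2 were higher and 5 lower, against 4.15% and 7.96% of all viewpoints' windows. Of the 5 lower windows, 4 lay on the Sox9 side. With KR values 3 were higher and 6 lower, against 4.13% and 8.09%, so the counts of lower windows were near the background in number. The smallest ratios were 0.469 at 113.01 Mb, 0.491 at 112.61 Mb and 0.545 at 112.71 Mb. The highest bin right of the boundary was at 112.49 Mb, with 3.28 (2.75 to 3.89), and past 112.51 Mb contact over expected was at most 1.76 in any window.

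In InvC the contacts of Kcnj2 piled up at the end of the desert instead. The window at 112.41 Mb had a contact over expected of 3.43 and that at 112.31 Mb 3.39, the 2 highest of that library. Past them the value fell to 1.75 at 112.51 Mb and 1.03 at 112.71 Mb. The bins at 112.38 Mb (5.48, 4.78 to 6.26, 218 contacts) and 112.49 Mb (5.15, 4.46 to 5.92, 200 contacts) carried this rise. The bin at 112.49 Mb lies next to the place that the mirror gives the boundary sequence, while 112.38 Mb lies before it. At 113.02 Mb InvC had 3.77, below the 4 deletion libraries.

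InvC∆Bor, the same inversion by label without Bor, kept 1 of those bins and lost the other. The bin at 112.38 Mb had 4.85 (4.12 to 5.66), overlapping with InvC, and the bin at 112.49 Mb had 1.58 against 5.15. The Sox9 bin had 2.89 in InvC and 4.32 in InvC∆Bor (3.32 to 5.53), and the bin at 113.02 Mb had 3.77 and 5.43 (4.43 to 6.60). The Sox9 side share was 1.75 times that of InvC (1.63 to 1.87), the stretch beyond the right edge 1.51 times (1.41 to 1.62) and the desert 0.957 times (0.935 to 0.978). By contact over expected these ratios were 1.61, 1.30 and 0.933. Kcnj2 in these libraries thus differed little in its summed desert share and more past the desert, while within the desert the bin at 112.49 Mb differed most of the bins named here. Of 58 windows 15 were higher in InvC∆Bor and 1 lower, against 10.1% and 1.34% of all viewpoints' windows. Of the 15, 4 lay on the Sox9 side and 10 beyond the right edge. The largest ratios were 2.01 at 112.61 Mb, 1.95 at 113.41 Mb and 1.79 at 112.71 Mb, and the smallest were 0.663 at 112.41 Mb and 0.738 at 109.31 Mb.

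The sequence in the bin at 112.38 Mb of InvC and InvC∆Bor lies at 111.51 Mb in the deletion libraries, near the boundary bin. At that bin the deletion libraries had a Kcnj2 contact over expected of 1.22 (∆BorC1), 1.38 (∆BorC1-2), 1.26 (∆BorC1-4) and 1.53 (∆CTCF). At the same position, 112.38 Mb, where other sequence lies, they had 1.67 to 2.78. The value of 5.48 in InvC and 4.85 in InvC∆Bor was matched in neither place. This sequence was therefore a strong contact of Kcnj2 in InvC and InvC∆Bor and not where it lies in the deletion libraries. In InvIntra, the third inverted library, the bins from 112.38 to 112.41 Mb, where its mirror places that sequence, had 1.82 to 2.31. These values are lower, but the bins at 112.41 and 112.40 Mb ranked 5 and 6 among that library's bins right of the boundary. Its Sox9 bin also had 2.31.

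**Figure D3:**
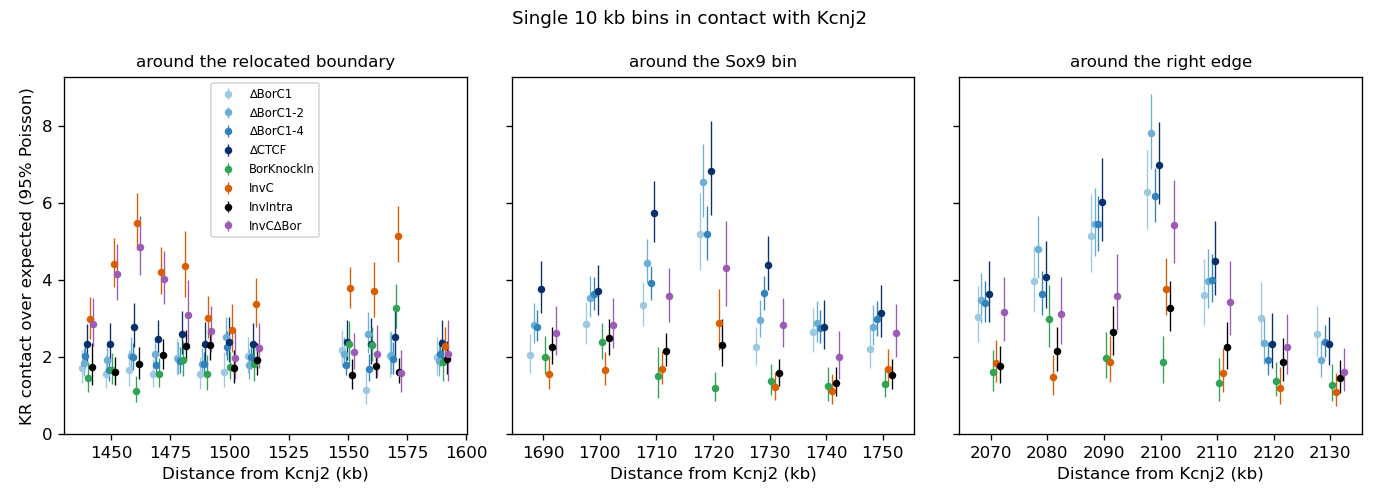
KR contact over expected (vertical axis, 95% Poisson intervals) of Kcnj2 with single 10 kb bins against distance from Kcnj2 in kb, for all 8 libraries; the bins shown were singled out after their values were seen and are offset sideways to keep the points apart. In the left panel InvC and InvC∆Bor reach 5.48 and 4.85 at the same bin, while near 1570 kb InvC has 5.15 and BorKnockIn 3.28; in the middle and right panels the deletion libraries reach 6.83 and 7.81.

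InvC and InvIntra are both inverted, with the boundary sequence moved in InvC and, by its label, kept in place in InvIntra. The desert share of Kcnj2 was 1.96 times higher in InvC (1.91 to 2.01), and the Sox9 side was 0.782 times (0.732 to 0.835). Of 58 windows 10 were higher and 10 lower, against 9.23% and 13.3% of all viewpoints' windows. With KR values 11 were higher and 9 lower, against 9.54% and 13.6%. All 10 higher windows lay in the desert, and 9 of the 10 lower ones beyond the right edge. The largest ratios were 2.76 at 111.81 Mb, 2.48 at 111.51 Mb and 2.44 at 111.41 Mb, and the smallest 0.460 at 114.21 Mb, 0.492 at 114.11 Mb and 0.523 at 113.51 Mb.

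InvC∆Bor and ∆BorC1 hold the desert in opposite orientations, and each lacks the boundary sequence by coverage, at 112.50 Mb in InvC∆Bor and at the boundary bin in ∆BorC1. The desert share was 1.19 times higher in InvC∆Bor (1.16 to 1.22), and the Sox9 side was 0.943 times (0.888 to 1.00). By contact over expected the ratio was also 1.19 for the desert, but 0.802 for the Sox9 side. Of 58 windows 3 were higher and 0 lower, against 6.44% and 1.52% of all, and with KR values 2 were higher and 0 lower, against 6.74% and 1.60%. The largest ratio was 1.91 at 112.31 Mb, the window of the bin described above, followed by 1.46 at 111.81 Mb and 1.43 at 112.11 Mb. The desert share of InvC∆Bor lay between those of ∆BorC1-2 and ∆CTCF.

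Whether the profile over the desert kept to position or moved with the sequence was asked by matching the 11 desert windows that the mirror covers to the deletion median both ways. By position, r over the log2 values was 0.91 in InvC, 0.91 in InvIntra and 0.83 in InvC∆Bor. By sequence, with the windows read backwards, it was -0.88, -0.95 and -0.85. All of these profiles rise with distance from Kcnj2, by 0.06 in log2 per 100 kb in the deletion median, 0.13 in InvC, 0.21 in InvIntra and 0.10 in InvC∆Bor. After that linear rise was removed, r by position was 0.11 in InvC, -0.41 in InvIntra and 0.04 in InvC∆Bor. By sequence it was then 0.15, -0.38 and 0.20. The high r by position therefore rests on the shared rise with distance. The windows are 11 neighbours of 1 profile and share libraries, so these r are descriptions.

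**Figure D4:**
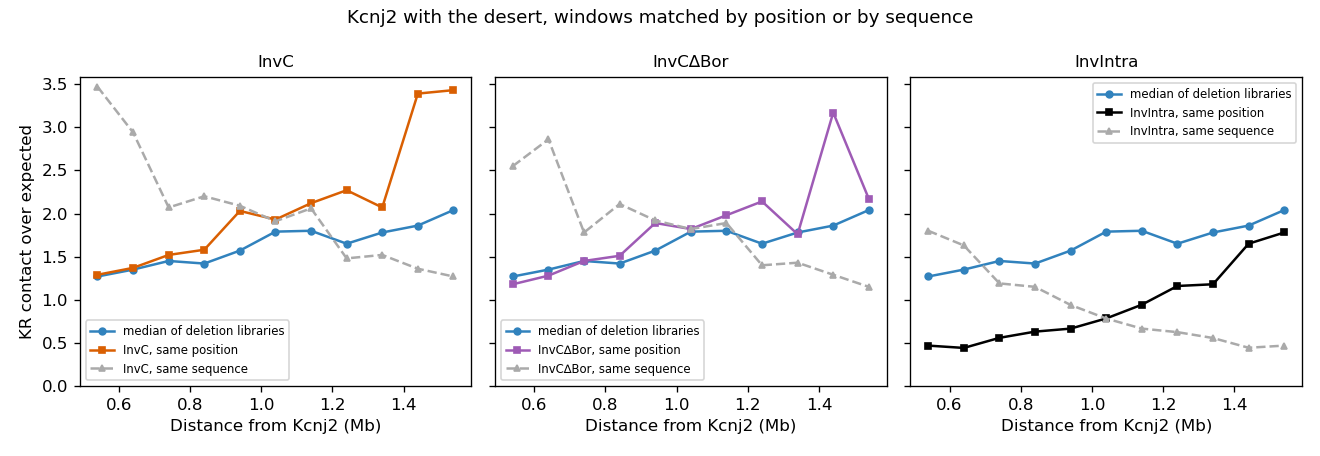
KR contact over expected (vertical axis, from 0) of Kcnj2 in 11 desert windows against distance from Kcnj2 in Mb, for 3 inverted libraries; circles give the median of the 4 deletion libraries, squares the inverted library at the same position and triangles the same sequence. Squares rise with distance like the circles while triangles fall, and InvC and InvC∆Bor exceed the circles most in the window at 1.44 Mb, with 3.39 and 3.17 against 1.86.

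Kcnj2 was compared with the rest of its domain to see whether its window stood out. Of 20 other 30 kb viewpoints within 300 kb of it, all 20 had a lower desert contact over expected in 7 libraries, and 14 of 20 in InvIntra. Kcnj2 exceeded the median of these viewpoints 1.38-fold for ∆BorC1-2, 1.27-fold for ∆BorC1-4 and 1.44-fold for ∆CTCF, with ∆BorC1 just under ∆BorC1-4. The ratio was 1.18 in BorKnockIn, 1.30 in InvC, 1.31 in InvC∆Bor and 1.04 in InvIntra. The viewpoints share libraries and neighbours, so these are counts and not tests. On the Sox9 side Kcnj2 was above 19 of 20 in ∆BorC1 and above all 20 in ∆BorC1-2, ∆BorC1-4, ∆CTCF and InvC∆Bor, but above only 13 in BorKnockIn, 15 in InvIntra and 5 in InvC. Thus in InvC, by contact over expected, the window of Kcnj2 stood out for the desert and not for the Sox9 side. In raw desert share Kcnj2 was not the highest of these viewpoints in any library. The viewpoint at 111.15 Mb, nearer to the desert, had a larger share in each. It placed 27.3% there against 23.2% for Kcnj2 in ∆BorC1, and 16.9% against 14.7% in InvIntra.

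**Figure D5:**
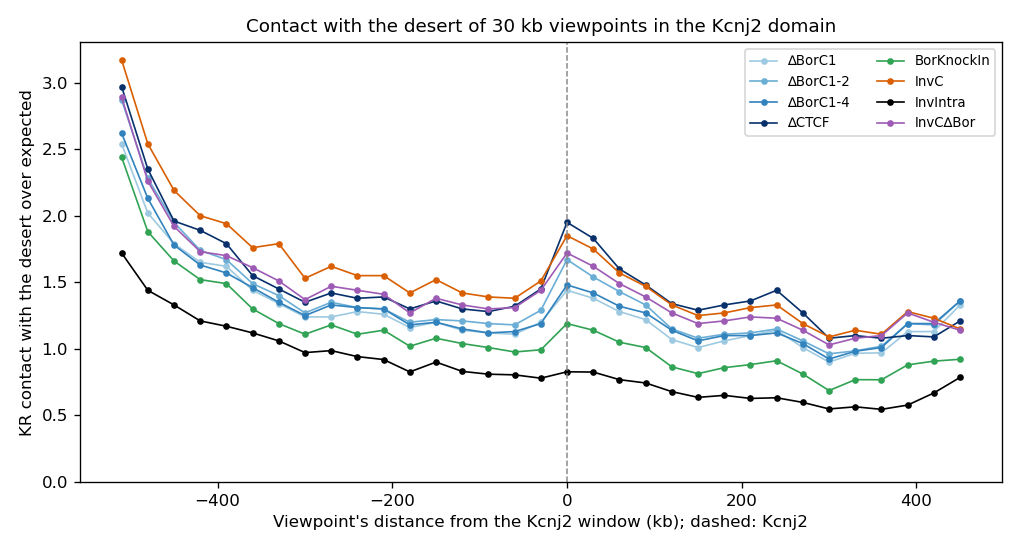
KR contact over expected with the desert (vertical axis, from 0) of 30 kb viewpoints in the Kcnj2 domain against their distance from the Kcnj2 window in kb, for 8 libraries. A local peak stands at 0 kb, highest in ∆CTCF at 1.95 and least marked in InvIntra at 0.828, and all libraries climb again towards the left edge.

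Per distance, viewpoints at the left edge of the domain met the desert more than Kcnj2 did. The viewpoint at 110.40 Mb had a desert contact over expected of 2.54 for ∆BorC1, 2.97 for ∆CTCF, 3.17 for InvC and 1.72 for InvIntra. In raw share it did not exceed Kcnj2 in every library: it placed 23.2% of its contacts in the desert in ∆BorC1, as Kcnj2 did, and 26.9% in ∆CTCF against 28.6%. From there contact over expected fell towards Kcnj2, with lows of 1.11 at 110.85 Mb and 1.01 at 111.06 Mb on its sides in ∆BorC1. Outside InvIntra, Kcnj2 and the left edge were thus separate high points of the domain in desert contact over expected. Values in ∆BorC1 also rose towards the boundary bin, from 0.901 at 111.21 Mb to 1.33 at 111.36 Mb. In InvIntra the viewpoint at 110.64 Mb, with 0.987, lay above Kcnj2, with 0.828. Among 180 viewpoints at least 200 kb away, the desert share over the 8 libraries was most like that of Kcnj2 at 111.21 Mb (r = 0.993), 111.18 Mb (0.992) and 111.24 Mb (0.987), all in its own domain. Their desert shares ran from 16.9% to 32.7% over libraries. These viewpoints share the libraries and their depth with Kcnj2.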

How the data were processed

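Capture Hi-C maps of 8 mutants were used, 1 library each. Bowtie2 2.2.6, Juicer and the build mm9 are named in the submitters' processing notes; no source used here gives the read filters. The raw maps, deposited by the authors, hold read pair counts for each combination of 10 kb bins. The KR maps hold a signal that the authors made by balancing those counts, as the deposited file names say.

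Bins under 0.05 of a library's median coverage in any library were left out (5 bins). Expected contact was each library's mean KR value at each distance; distances follow the deposited coordinates, so removed sequence still counts in the deletion libraries. Shares have exact Clopper-Pearson 95% intervals, ratios a log-normal and single bins an exact Poisson interval, taking read pairs as independent. Named windows were the top 5 of each library at least 200 kb from Kcnj2 with at least 20 contacts, and the 3 largest and 3 smallest ratios per pair with at least 100 contacts. The Sox9 position came from general knowledge of mm9. The viewpoint, landmarks and lists were chosen with earlier results of these data known. On simulated maps a gain of the desert, taken as a ratio of odds, was recovered within 2.78% (12 maps), and mirror axes within 0.0 kb (2 maps). The odds set desert contacts against all other Kcnj2 contacts. The desert's ratios of shares and contact over expected reported here are other measures, and their error was not checked in this way. The simulated mirrors moved whole bins, so the error of the fitted axes, which need not fall on whole bins, was not checked either. Calculations used Python 3.11.15, numpy 2.4.6, scipy 1.17.1 and matplotlib 3.10.9.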

Additional observations from a re-analysis of the deposited data

How the results depend on the processing

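Of 112 recomputed values, 66 stayed close to the reported ones, 43 moved and 3 turned their sign. The 3 are the differences between r by position and r by sequence, which went from 1.79 to -0.05 in InvC, from 1.86 to -0.03 in InvIntra and from 1.68 to -0.16 in InvC∆Bor when the linear trend over distance was removed, an alternative chosen after seeing the data. With raw counts these differences were 1.42, 1.70 and 1.38, and against ∆BorC1 alone 1.62, 1.65 and 1.51. With the expectation from flank pairs InvC gave 1.92 and InvC∆Bor 1.89.

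All ratios of shares kept their direction. The deletion median over InvIntra for the desert was 1.75 with KR values, 1.62 with a 50 kb viewpoint, 1.62 with pairs at least 100 kb apart and 1.46 with contacts to the right only. For the Sox9 side it was 1.64 with KR values and 1.33 with contacts to the right only. With contacts to the right only, the desert ratio was 0.925 for InvC∆Bor over InvC, 0.890 for BorKnockIn over ∆BorC1 and 1.12 for InvC∆Bor over ∆BorC1. BorKnockIn over ∆BorC1 was 0.799 for the desert with KR values, and for the Sox9 side 0.475 after thinning to the shallowest library and 0.555 with contacts to the right only. The left share ratio was 1.30 with pairs at least 100 kb apart and 1.13 with contacts under 1 Mb away.

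The percent of windows past the fold moved with the fold. With the fold threshold lowered by 0.25 it was 51.7 for ∆BorC1 over InvIntra, 5.17 for ∆BorC1-2 over ∆BorC1, 15.5 for ∆BorC1-4 over ∆BorC1-2, 34.5 for ∆CTCF over ∆BorC1-4, 37.9 for BorKnockIn over ∆BorC1, 22.4 for InvC∆Bor over ∆BorC1 and 74.1 for InvC over InvIntra. At 2-fold it was 5.17 for ∆BorC1 over InvIntra, 0 for both ∆BorC1-4 over ∆BorC1-2 and ∆CTCF over ∆BorC1-4, 3.45 for BorKnockIn over ∆BorC1, 1.72 for InvC∆Bor over InvC, 0 for InvC∆Bor over ∆BorC1 and 12.1 for InvC over InvIntra. With 50 kb windows ∆BorC1-2 over ∆BorC1 gave 1.74 and ∆BorC1-4 over ∆BorC1-2 6.03; with KR values they gave 1.72 and 3.45, and InvC∆Bor over ∆BorC1 3.45. The cause was not tested, except that a fold threshold changes a count by construction.

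No paired analysis was possible because each genotype had 1 library. Windows beyond the right edge held few contacts, which limits their ratios. Desert contact over expected depends on the mean of the library's own map, which includes the edited domains.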
